A study of Mus musculus with 11 samples.

Results

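The junction genes of the blood-testis barrier described here were 9 of the 24411 genes in a table of read counts from mouse testis. They were taken by name, and all 9 were found and passed the filter on low counts in every comparison. They comprised the claudins Cldn3, Cldn5 and Cldn11, occludin (Ocln), the junctional adhesion molecules F11r and Jam3, the scaffold protein Tjp1 (ZO-1), the connexin Gja1 (connexin 43) and the cadherin Cdh2 (N-cadherin). Polyadenylated mRNA of decapsulated whole testes from untreated 20-week-old mice was sequenced in paired-end mode. There were 4 samples of WT C57Bl/6J mice, 4 samples of mice with a global knockout of Aco1, the gene that encodes iron regulatory protein 1 (Irp1-/-), and 3 samples of mice with a global knockout of Ireb2, which encodes iron regulatory protein 2 (Irp2-/-). Both proteins bind iron-responsive elements in mRNAs and thereby regulate cellular iron uptake, storage and use. The founders of the Irp1 line also had a C57Bl/6J background. The WT controls of that line were littermates bred from heterozygous parents, while the origin of the Irp2-/- mice is not given in the sources used here. Both knockouts affect every cell of the body, so a change in testicular cells and one in another organ cannot be told apart. The labels number the samples without saying that each is a separate mouse, so the p-values measure the spread between these samples.

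Sertoli cells line the seminiferous tubule and are joined to each other near its base. Their junction combines tight junctions, gap junctions, desmosomes and an actin-rich adherens junction called the basal ectoplasmic specialization, and it opens and closes again as developing spermatocytes pass from the basal to the adluminal compartment. Claudins and occludin span the membrane and seal the space between cells, junctional adhesion molecules are immunoglobulin-like adhesion proteins beside them, and ZO-1 ties these proteins to actin. Connexin 43 forms channels between neighbouring Sertoli cells and between Sertoli and germ cells, and N-cadherin holds the cells together through catenins.

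The total count per sample lay between 15902473 and 22451417. No pair of replicates agreed within sampling noise (chi-square of their counts of 1.97 to 6.75 per degree of freedom, 15 pairs). Levels are given as CPM, the count scaled to the library total. The targeted genes followed the labels, since Aco1 was at 8.60 ± 0.605 CPM in Irp1-/- and 11.7 ± 1.46 CPM in WT testes (SD, n = 4 each; adjusted p = 0.0158, edgeR), and Ireb2 was at 62.7 ± 1.60 CPM in Irp2-/- (n = 3) and 139 ± 4.45 CPM in WT testes (n = 4; adjusted p = 2.84e-13, edgeR). Irp1-/- replicate 6 carries a letter R in its label where all other samples carry L, and the meaning of that letter is not stated. All 14 Sertoli cell markers were detected, and their summed level was 1315 to 1460.4 CPM in WT, 1457 to 1658 CPM in Irp1-/- and 1317 to 1524 CPM in Irp2-/- testes. Clu was the most abundant of them and the only 1 of the 14 to pass the test against WT in Irp1-/- testes (log2 fold change 0.16, adjusted p = 0.0473, edgeR), and in Irp2-/- testes 0 of 14 passed in edgeR. At an unadjusted p under 0.05 there were 5 of the 14 in Irp1-/-, beside 12.1% of all genes, and 1 in Irp2-/-, beside 9.42%, and the fitted change was positive for 13 of 14 in Irp1-/- and 6 of 14 in Irp2-/- testes. The call of Clu was lost without WT replicate 1, 2 or 3 or Irp1-/- replicate 1 or 6 (adjusted p from 0.0587 to 0.307, edgeR), and that of Aco1 without WT replicate 2, 3 or 4 or Irp1-/- replicate 6 (adjusted p from 0.0520 to 0.0750, edgeR). Between the knockouts, 4 of the 14 Sertoli cell markers were higher in Irp1-/- and 0 lower in edgeR, beside 2.92% and 1.76% of all genes. There the fitted change was positive for 12 of 14, with a median log2 fold change of 0.11. In bulk tissue, fewer cells of a type and less RNA per cell cannot be told apart.

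In WT testes the claudins Cldn3 and Cldn11 had the highest levels of the 9 genes once the count was divided by exon length. On this scale, CPM per kilobase of all annotated exons, Cldn3 was at 37.5 ± 1.97 and Cldn11 at 36.9 ± 1.96 (SD, n = 4, as for the following WT levels per kilobase). Their ranges overlapped, from 36.2 to 40.4 for Cldn3 and from 34.7 to 38.8 for Cldn11, so neither stood above the other. Cdh2 followed at 17.9 ± 0.425 and Tjp1 at 16.8 ± 0.235 CPM per kilobase, and the 4 values of Cdh2 lay above those of Tjp1. Gja1 at 14.6 ± 2.04 overlapped both Tjp1 and Jam3, the latter at 13.9 ± 0.287 CPM per kilobase. F11r at 8.37 ± 0.675, Cldn5 at 3.88 ± 0.291 and Ocln at 1.56 ± 0.282 CPM per kilobase formed the lower end, with no overlap between neighbours. Among the 9 genes, occludin mRNA was thus the scarcest of the sealing proteins, below the lowest claudin of the set. Cldn3 was at 36.8 ± 0.637 and Cldn11 at 40.4 ± 3.22 CPM per kilobase in Irp1-/- testes (n = 4), where the values of Cldn11 lay above those of Cldn3. In Irp2-/- testes (n = 3) Cldn3 was at 37.7 ± 3.09 and Cldn11 at 36.6 ± 3.07 CPM per kilobase, and the ranges overlapped again. With the length of the longest RefSeq transcript in place of all exons, a choice made after the values were seen, the order of the WT means was the same.

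**Figure D1:**
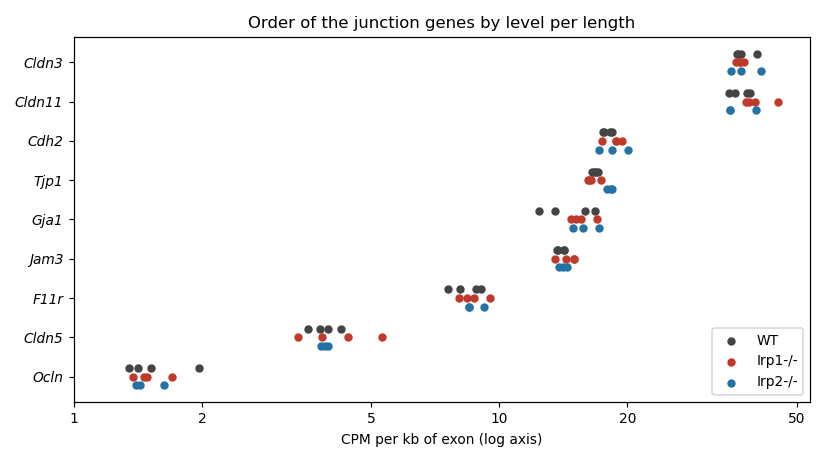
Level of each of the 9 genes in CPM per kilobase of exon on a log axis, with one point per sample and the genotypes side by side (4 WT, 4 Irp1-/-, 3 Irp2-/-). Cldn3 and Cldn11 lie highest and Ocln lowest in all 3 genotypes.

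None of the 9 genes passed the test in either knockout. The expression of each gene was compared between genotypes with edgeR's quasi-likelihood test, a gene passing where p, adjusted over every gene tested, was under 0.05. In Irp1-/- against WT testes 0 of 9 passed, beside 1.02% of all 16002 genes, and 1 of 9, Cldn11, had an unadjusted p under 0.05, beside 12.1% of all genes. In Irp2-/- against WT testes 0 of 9 passed, beside 1.21% of 16154 genes, and 1 of 9, Tjp1, had an unadjusted p under 0.05, beside 9.42%. In Irp1-/- against Irp2-/- testes 0 of 9 passed, beside 4.69% of 16281 genes, and 2 of 9, Cldn11 and Tjp1, had an unadjusted p under 0.05, beside 16.3%. Against backgrounds this low, 0 of 9 says little about the genes as a group. DESeq2 also called 0 of 9 in all 3 comparisons. The 95% intervals of the 9 genes reached from 0.801-fold (Ocln) to 1.29-fold (Cldn5) of WT in Irp1-/- testes, and from 0.773-fold (Ocln) to 1.22-fold (Gja1) in Irp2-/- testes. Differences beyond those bounds lay outside the interval of every one of the 9 genes. The median log2 fold change of the 9 genes was 0.04 in Irp1-/- and -0.0039 in Irp2-/- testes, beside -0.00079 and 0.0033 over all genes tested. Both comparisons share the WT samples.

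**Figure D2:**
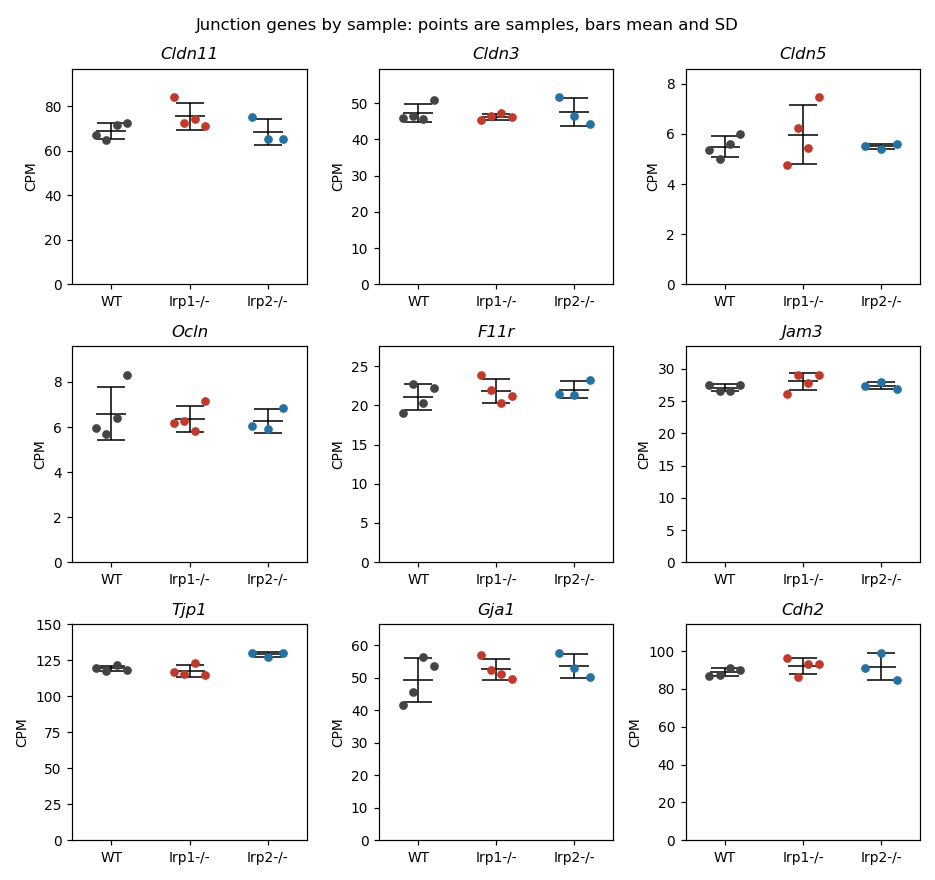
CPM of the 9 genes in each sample, one panel per gene, with a coloured point per sample and black bars for the mean ± SD of each genotype. The genotypes overlap in every panel except that of Tjp1, in which the 3 Irp2-/- samples lie above the 8 others.

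Cldn11, on mm10 chromosome 3 from 31149920 to 31164324, encodes the claudin that Sertoli cells need to form their tight junction strands. Its CPM was 66.9, 64.9, 71.5 and 72.6 in WT replicates 1 to 4, 84.4, 72.3, 74.5 and 71.1 in Irp1-/- replicates 1, 2, 6 and 7, and 75.1, 65.2 and 65.2 in Irp2-/- replicates 1 to 3. Irp1-/- replicate 1 was the highest of all samples, while the other Irp1-/- samples overlapped the upper WT samples. Its log2 fold change in Irp1-/- against WT was 0.12 (SE 0.050, 95% interval 0.016 to 0.22, adjusted p = 0.313, edgeR), a 1.09-fold level. Against Irp2-/- testes it was 0.15 (SE 0.064, adjusted p = 0.228, edgeR), and in Irp2-/- against WT it was -0.03 (SE 0.058, adjusted p = 0.953, edgeR). Without Irp2-/- replicate 1, the highest sample of its group, Cldn11 passed between the knockouts (log2 fold change 0.22, adjusted p = 0.0383, edgeR).

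Cldn3, a claudin that Sertoli cells place in newly forming tight junctions under androgen control, lies on chromosome 5 from 134986214 to 134987472. It had 45.9, 46.5, 45.6 and 50.9 CPM in WT, 45.3, 46.3, 47.3 and 46.2 CPM in Irp1-/- and 51.8, 46.5 and 44.2 CPM in Irp2-/- testes. In WT and in Irp2-/- a single sample stood above the rest, and the Irp1-/- samples lay close together. The log2 fold change was -0.04 (SE 0.049, adjusted p = 0.797, edgeR) in Irp1-/- and -0.0093 (SE 0.062, adjusted p = 0.986, edgeR) in Irp2-/- testes. Its exons share 40 bases, 3.18% of their length, with Wbscr25 on the opposite strand. These bases are 1.93% of the exon length of Wbscr25, which was at 405 ± 11.5 CPM in WT testes (n = 4). Wbscr25 was thus far more abundant than Cldn3. If strand was not used in counting, reads of the 2 genes from these bases cannot be told apart. The part of the Cldn3 count affected was not measured and need not be small. The level of Cldn3 per kilobase carries the same limit. Cells of the epididymis also make claudins, and the summed level of 8 epididymal markers was 2.76 to 4.70 CPM over all 11 samples, nearly all of it from Rnase10.

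Cldn5, the main claudin of blood vessel endothelium that is also made by Sertoli cells, lies on chromosome 16 from 18776847 to 18778262. It was at 5.37, 5.01, 5.60 and 5.99 CPM in WT, at 4.75, 6.24, 5.42 and 7.48 CPM in Irp1-/- and at 5.50, 5.39 and 5.62 CPM in Irp2-/- testes. The Irp1-/- samples thus spread to both sides of the others. The log2 fold changes of 0.10 (SE 0.13, adjusted p = 0.826, edgeR) in Irp1-/- and -0.02 (SE 0.12, adjusted p = 0.986, edgeR) in Irp2-/- testes were smaller than their errors. The summed level of 12 endothelial markers was 52.1 to 58.8 CPM in WT, 53.9 to 56.3 CPM in Irp1-/- and 62.8 to 65.1 CPM in Irp2-/- testes, and 1 of these 12, Vwf, passed the test in Irp2-/- (log2 fold change 0.37, SE 0.078, adjusted p = 0.0127, edgeR). The call of Vwf was lost without WT replicate 3 (adjusted p = 0.0511, edgeR) or Irp2-/- replicate 2 (adjusted p = 0.124, edgeR). The fitted change in Irp2-/- against WT was positive for 6 of the 12 endothelial markers, with a median log2 fold change of 0.014, and Vwf was the most abundant of them.

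Ocln, which regulates the permeability of the seal, lies on chromosome 13 from 100496507 to 100552718. Its CPM was 5.97, 5.69, 6.41 and 8.33 in WT, 6.18, 6.28, 5.83 and 7.17 in Irp1-/- and 6.04, 5.90 and 6.86 in Irp2-/- testes. WT replicate 4 was the highest and WT replicate 2 the lowest of all 11 samples. The log2 fold change was -0.07 (SE 0.12, adjusted p = 0.877, edgeR) in Irp1-/- and -0.10 (SE 0.13, adjusted p = 0.921, edgeR) in Irp2-/- testes, and both turned positive without WT replicate 4, at 0.06 and 0.03.

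The junctional adhesion molecules showed no separation of the genotypes. F11r (JAM-A), on chromosome 1 from 171437535 to 171464603, had 19.1, 22.7, 20.3 and 22.2 CPM in WT, 23.9, 21.9, 20.3 and 21.1 CPM in Irp1-/- and 21.4, 21.3 and 23.2 CPM in Irp2-/- testes. Its log2 fold change was 0.04 in both knockouts (SE 0.071 and 0.075, adjusted p = 0.891 and 0.949, edgeR). Jam3 (JAM-C), which also acts in spermatid polarization, lies on chromosome 9 from 27097384 to 27155421. Its CPM was 27.6, 26.6, 26.6 and 27.6 in WT, 26.2, 29.1, 27.9 and 29.1 in Irp1-/- and 27.3, 28.0 and 26.8 in Irp2-/- testes. Jam3 was the steadiest of the 9 genes, with log2 fold changes of 0.04 (SE 0.058, adjusted p = 0.860, edgeR) and -0.0039 (SE 0.063, adjusted p = 0.994, edgeR). Its exons share 589 bases, 30.3% of their length, with Gm48796 on the opposite strand, which has no row of that name in the table.

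Tjp1 encodes ZO-1, the scaffold that links claudins, occludin and JAMs to actin, and lies on chromosome 7 from 65296165 to 65527781. It was at 120, 118, 122 and 119 CPM in WT, at 117, 115, 123 and 115 CPM in Irp1-/- and at 130, 127 and 130 CPM in Irp2-/- testes. All 3 Irp2-/- samples lay above all WT and all Irp1-/- samples. The groups did not overlap for 1 of 9 genes in Irp2-/- against WT, beside 9.76% of all genes tested (6.08% higher and 3.68% lower in Irp2-/-), for 1 of 9 between the knockouts, beside 15.1% (6.69% higher and 8.42% lower in Irp1-/-), and for 0 of 9 in Irp1-/- against WT, beside 6.18% (3.77% higher and 2.41% lower in Irp1-/-). The log2 fold change of Tjp1 in Irp2-/- against WT was 0.09 (SE 0.045, 95% interval 0.0011 to 0.19, adjusted p = 0.520, edgeR), a 1.07-fold level. In Irp1-/- against WT it was -0.04 (SE 0.039, adjusted p = 0.788, edgeR). The difference between the knockouts was -0.13 (SE 0.047, adjusted p = 0.154, edgeR) in Irp1-/- against Irp2-/- testes, so the Tjp1 difference did not pass in any comparison.

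Gja1, on chromosome 10 from 56377330 to 56402513, encodes the connexin that couples Sertoli cells and is required in them for germ cell development. Its CPM was 41.7, 45.5, 56.5 and 53.5 in WT, 57.1, 52.3, 51.1 and 49.6 in Irp1-/- and 57.7, 52.9 and 50.2 in Irp2-/- testes. WT replicates 1 and 2 were lower than every knockout sample, and WT replicates 3 and 4 lay within the range of the knockouts. The spread within WT, an SD of 6.87 CPM, exceeded the differences of the means, and the log2 fold changes were 0.08 (SE 0.073, adjusted p = 0.723, edgeR) in Irp1-/- and 0.10 (SE 0.087, adjusted p = 0.817, edgeR) in Irp2-/- testes.

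Cdh2, on chromosome 18 from 16588877 to 16809246, encodes the main cadherin of the ectoplasmic specialization. It had 86.7, 87.5, 91.2 and 90.0 CPM in WT, 96.1, 86.3, 93.0 and 93.0 CPM in Irp1-/- and 91.0, 99.2 and 84.9 CPM in Irp2-/- testes. The knockout samples reached both below and above the WT range. Its log2 fold change was 0.04 (SE 0.041, adjusted p = 0.783, edgeR) in Irp1-/- and 0.03 (SE 0.055, adjusted p = 0.952, edgeR) in Irp2-/- testes.

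**Figure D3:**
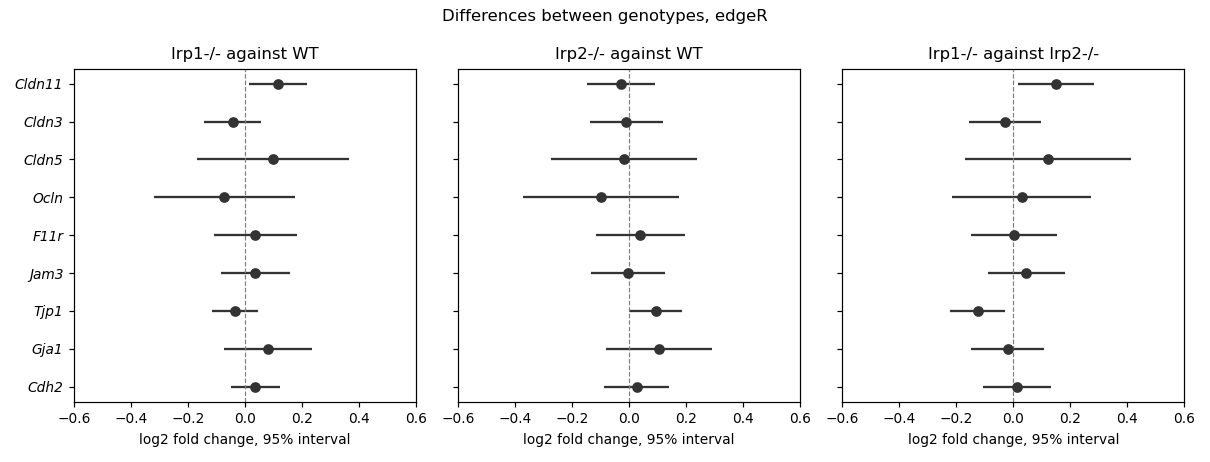
Fitted log2 fold change of each of the 9 genes (point) with its 95% interval (line) in Irp1-/- against WT, Irp2-/- against WT and Irp1-/- against Irp2-/-, from edgeR. The intervals that leave out 0 are those of Cldn11 in the first panel, Tjp1 in the second and both in the third, and none passed after adjustment.

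Over all 11 samples the genes differed in how much of their spread counting alone would give. The coefficient of variation of Gja1 was 9.47%, beside 3.20% expected from counting, and that of Cldn11 was 8.09%, beside 2.72%. For Jam3 it was 3.50%, below the 4.38% expected from counting, and for F11r it was 6.53%, beside 4.95%. Cldn5 and Ocln, with the fewest reads, had 12.8% and 12.0%, of which counting would give 9.68% and 9.10%. As a multiple of the spread from counting, Gja1 and Cldn11 varied most among the 9 genes. As a description, with the genotype means removed, Cldn11 and Gja1 also varied together across the 11 samples (Pearson r of log2 CPM of 0.72), whereas Ocln and Tjp1 varied in opposite directions (r of -0.65). All genes of a sample share 1 library, and no test was made of these values.

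The genes that varied most like each of the 9 were looked up in the same way among 9408 other genes with a mean of at least 10 CPM. Gja1 was most like Gclc (r of 0.98), a subunit of the enzyme that makes the glutathione precursor, and Sqstm1 (r of 0.95), an autophagy receptor. Cldn11 was most like Ttyh1 (r of 0.94) and Cited1 (r of 0.91). Tjp1 was most like Phf14 (r of 0.95), Cldn3 most like Eif2b5 (r of 0.94), Jam3 most like Asnsd1 (r of 0.94), Cdh2 most like Cdca8 (r of 0.93) and F11r most like Kctd5 (r of 0.91). Cldn5 was most like Sgcb (r of 0.93) and Ocln most like Pgam5 (r of 0.98). Cldn5 and Ocln, with means under 10 CPM, could not be found as the closest gene of another, and none of the other 7 was. Each is the highest of 9408 values or more over 11 samples and are given as a description.

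Relative to the summed Sertoli marker CPM, which was mostly Clu, the mean ratio of each of the 9 genes was below that of WT in Irp1-/- testes. The median sum was 1513 CPM there, beside 1383 CPM in WT. All 9 ratios share this sum, so they are not separate results. Without division by it, the fitted change against WT was positive for 6 of the 9 genes. The mean ratio ran from 0.875-fold for Ocln, 0.886-fold for Cldn3 and 0.889-fold for Tjp1 to 0.988-fold for Cldn11 and Cldn5. In Irp2-/- testes the mean ratios ran from 0.933-fold for Ocln to 1.07-fold for Gja1. Cldn3 was at 3.20 to 3.49% of the marker sum in WT, 2.73 to 3.18% in Irp1-/- and 3.12 to 3.53% in Irp2-/- testes. Cldn11 was at 4.84 to 5.09% in WT, 4.65 to 5.09% in Irp1-/- and 4.60 to 4.95% in Irp2-/- testes. Tjp1 was at 8.12 to 9.12% in WT, 7.05 to 8.24% in Irp1-/- and 8.52 to 9.66% in Irp2-/- testes. These ratios are given as a description, and no test was made of them or of the part of Clu. Ratios to the geometric mean of the markers, in which Clu weighs less, were also computed but are not given here. The median log2 fold change of the Sertoli markers against WT was 0.093 in Irp1-/- and -0.0059 in Irp2-/- testes.

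The 9 genes were set beside 154 other junction genes in 6 lists, comprising other tight junction membrane proteins, tight junction scaffold and polarity proteins, other connexins and pannexins, proteins of the adherens junction and ectoplasmic specialization, desmosomal proteins, and regulators of the barrier. In Irp1-/- against WT testes 1 of the 115 tested rose and 0 fell, beside 0.581% and 0.444% of all genes. In Irp2-/- against WT testes 1 of 115 rose and 0 fell, beside 0.371% and 0.842%. In Irp1-/- against Irp2-/- testes 2 of 117 were higher and 4 lower, beside 2.92% and 1.76%. The median log2 fold change over these genes was 0.02 in each knockout against WT and 0.00055 between the knockouts. At an unadjusted p under 0.05 in edgeR there were 12 of 115, 17 of 115 and 24 of 117 genes, beside 12.1%, 9.42% and 16.3% of all genes. The genes that passed were all in the scaffold and polarity list, the adherens junction list or the list of regulators, and 0 of the other claudins and membrane proteins, 0 of the connexins and 0 of the desmosomal genes passed in edgeR in any comparison. In these 3 lists between 0 and 3 genes a list and comparison had an unadjusted p under 0.05 in edgeR, beside the same shares of all genes.

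**Figure D4:**
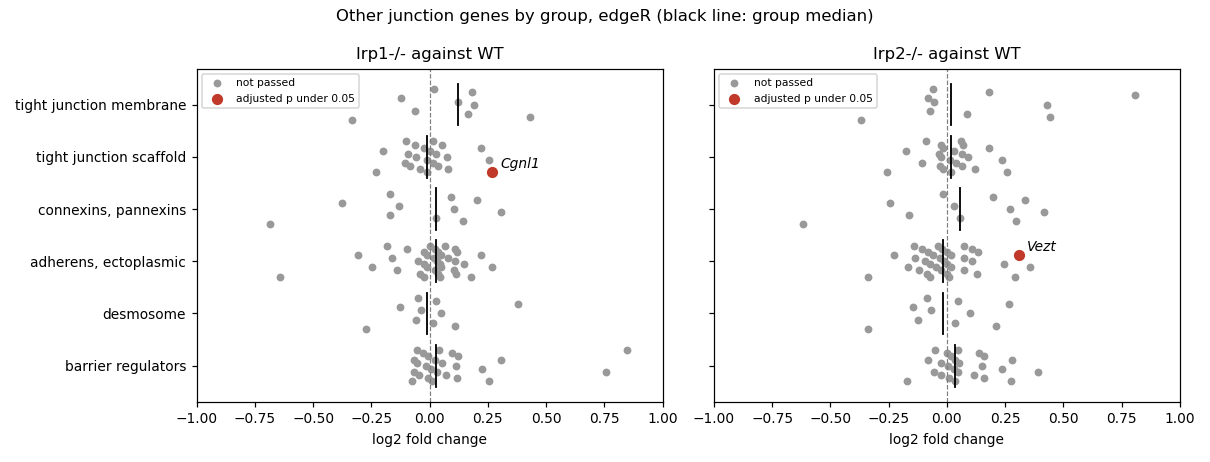
Fitted log2 fold change of each tested gene by list, with Irp1-/- against WT on one side and Irp2-/- against WT on the other, and a black line at the median of each list; red points with names are genes that passed. The medians lie near 0, between -0.01 and 0.12 in Irp1-/- and between -0.02 and 0.06 in Irp2-/- testes.

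Among the scaffold and polarity proteins, paracingulin (Cgnl1) rose in Irp1-/- testes. Cgnl1 encodes a protein that links tight and adherens junctions to microtubules, and lies on chromosome 9 from 71626509 to 71771602. Its CPM was 48.3, 45.8, 50.7 and 46.4 in WT, 60.0, 53.4, 62.1 and 57.4 in Irp1-/- and 42.6, 42.4 and 51.8 in Irp2-/- testes. All Irp1-/- samples lay above all others. The log2 fold change was 0.27 in Irp1-/- against WT (SE 0.051, adjusted p = 0.00515, edgeR) and 0.36 in Irp1-/- against Irp2-/- (SE 0.066, adjusted p = 0.00167, edgeR). In Irp2-/- against WT it was -0.09 (SE 0.065, adjusted p = 0.761, edgeR). The Sertoli marker sums given above overlapped between Irp1-/- and WT only through Irp1-/- replicate 2 (1457 CPM) and WT replicate 4 (1460.4 CPM). The Irp2-/- range overlapped both. Irp1-/- replicate 1 had the highest sum, and the part of these sums in the Cgnl1 difference was not tested.

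Vezatin (Vezt), a membrane protein of cadherin-based adherens junctions, rose in Irp2-/- testes. Its exons lie on chromosome 10 between 93939165 and 94035817, where they are shared in part with the same-strand Gm49628 and Mir331. It was at 27.4, 30.8, 30.4 and 32.1 CPM in WT, at 27.1, 27.7, 25.7 and 26.8 CPM in Irp1-/- and at 35.3, 41.0 and 37.4 CPM in Irp2-/- testes. The Irp2-/- samples lay above all others, and the Irp1-/- samples overlapped WT only at its lowest sample. The log2 fold change was 0.31 in Irp2-/- against WT (SE 0.067, adjusted p = 0.0151, edgeR), and this call was lost without WT replicate 1 (adjusted p = 0.0610, edgeR) or Irp2-/- replicate 2 (adjusted p = 0.155, edgeR). In Irp1-/- against WT it was -0.18 (SE 0.059, adjusted p = 0.149, edgeR), and between the knockouts it was -0.49 (SE 0.066, adjusted p = 5.87e-05, edgeR). The endothelial marker sum, in which Vwf weighs most, was also highest in the Irp2-/- samples, and its part in the Vezt difference was not tested.

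Between the knockouts 4 other genes of the lists passed. Prkcz, the atypical protein kinase C of the Par polarity complex, was at 17.1, 16.2, 17.2 and 15.97 CPM in Irp1-/- and at 21.7, 20.6 and 20.4 CPM in Irp2-/- testes, beside 16.8 to 17.9 CPM in WT. It was lower in Irp1-/- than in Irp2-/- by a log2 fold change of -0.32 (SE 0.072, adjusted p = 0.0103, edgeR), and in Irp2-/- against WT it was 0.26 (adjusted p = 0.0935, edgeR). Mpdz (MUPP1), a PDZ scaffold that binds claudins and JAMs, was at 6.97, 7.04, 6.68 and 5.97 CPM in Irp1-/- and at 8.68, 8.49 and 10.2 CPM in Irp2-/- testes, beside 6.72 to 7.97 CPM in WT. Its log2 fold change between the knockouts was -0.43 (SE 0.11, adjusted p = 0.0211, edgeR). For both genes the Irp2-/- samples were the highest of all 11.

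Espn (espin), which bundles actin in the ectoplasmic specialization, had 107, 93.8, 104 and 108 CPM in Irp1-/- and 90.5, 87.1 and 92.1 CPM in Irp2-/- testes, beside 90.3 to 98.4 CPM in WT. It was higher in Irp1-/- than in Irp2-/- by 0.21 (SE 0.052, adjusted p = 0.0224, edgeR). Rictor, a subunit of mTOR complex 2, which regulates the actin of the barrier, had 26.4, 24.1, 25.3 and 24.7 CPM in Irp1-/- and 30.0, 29.8 and 28.8 CPM in Irp2-/- testes, beside 24.6 to 29.0 CPM in WT. Its log2 fold change between the knockouts was -0.22 (SE 0.062, adjusted p = 0.0422, edgeR). The groups did not overlap for either gene, Espn lying above and Rictor below in Irp1-/-. Without single samples 3 of these calls were lost, that of Espn without Irp1-/- replicate 1 or 7 or Irp2-/- replicate 2, that of Mpdz without Irp1-/- replicate 7 or Irp2-/- replicate 2 or 3, and that of Rictor without any 1 of the 7 samples and in DESeq2. The calls of Cgnl1, Vezt and Prkcz between the knockouts held without each of the 7 samples in turn. Mpdz, Prkcz and Espn lie on chromosome 4, which also carries Aco1, at 41.1, 115 and 112 Mb from it, and Cgnl1 and Jam3 lie on chromosome 9 at 16.7 and 27.7 Mb from Ireb2.

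**Figure D5:**
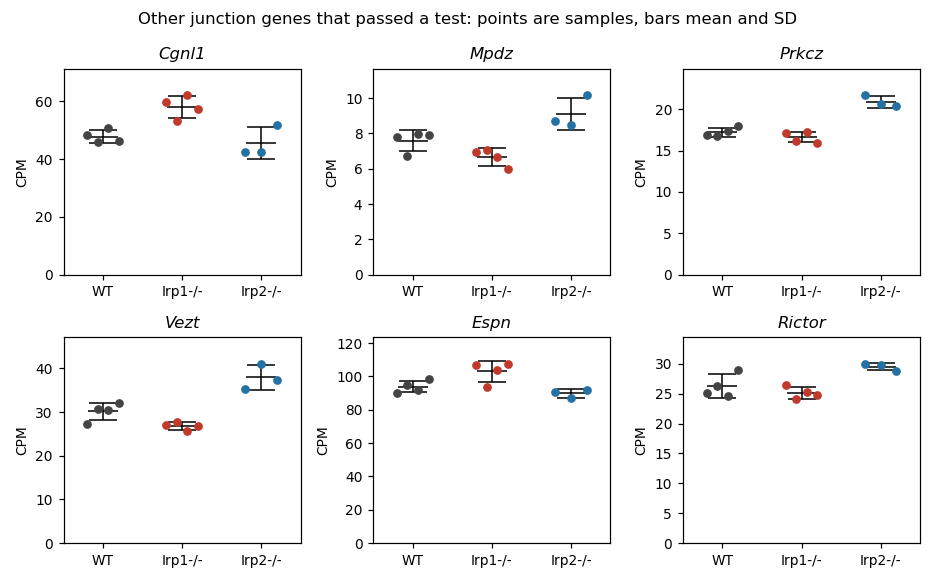
CPM of Cgnl1, Mpdz, Prkcz, Vezt, Espn and Rictor in each sample, one panel per gene, with a coloured point per sample and black bars for the mean ± SD of each genotype. Cgnl1 and Espn are higher in Irp1-/- than in Irp2-/- samples, and Mpdz, Prkcz, Vezt and Rictor lower.

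The other genes described from the lists did not pass in any comparison. Ybx3 (ZONAB), a Y-box protein that binds ZO-1, was at 1962 ± 28.3 CPM in WT, 1964 ± 25.3 CPM in Irp1-/- and 1950.2 ± 71.3 CPM in Irp2-/- testes (SD; n = 4, 4 and 3, as for the genes that follow). Rai14, an actin-binding protein of the ectoplasmic specialization, was at 684 ± 20.0, 686 ± 13.3 and 682 ± 45.7 CPM. Pvrl3 (nectin-3), the spermatid partner of nectin-2 at the contact with Sertoli cells, was at 426 ± 7.75, 442 ± 7.70 and 418 ± 7.42 CPM. For these 3 genes adjusted p was from 0.322 to 0.950 in edgeR. Ctsl (cathepsin L), a protease that Sertoli cells secrete, was at 296 ± 8.78, 325 ± 31.2 and 283 ± 25.9 CPM (log2 fold change 0.21 in Irp1-/- against Irp2-/-, SE 0.067, adjusted p = 0.103, edgeR). Among the remaining membrane proteins, Jam2, the binding partner of Jam3, was at 21.1 ± 1.56, 21.7 ± 1.36 and 20.3 ± 0.705 CPM. Fscn1 (fascin), an actin bundler, was at 13.8 ± 0.838, 11.2 ± 0.686 and 13.3 ± 0.600 CPM, with the Irp1-/- samples below all others and a log2 fold change against WT of -0.31 that missed the threshold (SE 0.084, adjusted p = 0.0781, edgeR). Itga6, the laminin-binding integrin of the apical ectoplasmic specialization, was at 14.8 ± 1.40, 18.0 ± 1.37 and 15.0 ± 1.49 CPM, with a log2 fold change of 0.27 in Irp1-/- against WT (SE 0.080, adjusted p = 0.117, edgeR). Tgfbr2, a receptor of the cytokines that open the barrier, was at 3.96 ± 0.424, 4.77 ± 0.383 and 5.27 ± 0.369 CPM, with a log2 fold change of 0.39 in Irp2-/- against WT (SE 0.14, adjusted p = 0.257, edgeR). Claudin-13, at 2.30 ± 0.370, 2.59 ± 0.519 and 3.16 ± 0.771 CPM, and Marveld2 (tricellulin), at 0.819 ± 0.332, 0.912 ± 0.170 and 1.47 ± 0.414 CPM, did not pass.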

How the data were processed

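The deposited file holds, per gene, unnormalized counts of reads for 4 WT, 4 Irp1-/- and 3 Irp2-/- testis samples. These counts had been made by the authors from stranded, polyadenylated RNA libraries with bcl2fastq, for which the labels and the methods give different versions, and the nf-core RNA-seq pipeline on mm10. The counting tool and its strand setting are not given in the sources used here. Demultiplexing, trimming, alignment and counting were not repeated, so reads lost or shared between overlapping genes in those steps remain so in the values. Samples were grouped by the labels.

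CPM was the count divided by the library total. Exon lengths and positions were those of GENCODE M21 on GRCm38 (mm10). Differences were tested with edgeR 4.0.16 under R 4.3.3 (filterByExpr, TMM, robust quasi-likelihood fit, Benjamini-Hochberg adjustment over the genes tested) on the samples of the 2 genotypes compared, and the code was tested on simulated data. The standard error was taken as the size of the log2 fold change over the square root of F. With totals of 15902473 to 22451417 counts a sample, the intervals cover counting error and the spread between samples. Alternatives tried were DESeq2 1.42.0, RLE scaling, filters of 10 counts or none, a joint fit of 11 samples, a replicate block, and the omission of each sample in turn.

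The 9 genes, the 6 junction lists, the 11 marker lists and the tests were chosen with earlier results of these data known. Genes named from the junction lists were those that passed in a comparison, the most abundant, and those with the largest fitted change, and some genes that this rule covers are left out of the text. An item left out of the lists and their counts is not reported here. The genes most like each member had the highest Pearson r of log2 CPM over 11 samples, with genotype means removed. No sequences are shown, since the values bear on whole genes.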

Additional observations from a re-analysis of the deposited data

Results flagged for a closer look

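Single samples stood apart from the other 3 of their group for 4 of the 98 gene and genotype groups of 4 that were examined, where chance alone would mark 4.9. Cldn3 was at 50.9 CPM in WT replicate 4, beside 45.6 to 46.5 CPM in the other WT samples. Mpdz was at 6.72 CPM in WT replicate 2, beside 7.78 to 7.97 CPM. Dsg1a, a desmosomal cadherin, was at 63.4 CPM in WT replicate 1, beside 59.8 to 59.9 CPM. Dsp, the desmosomal plaque protein desmoplakin, was at 3.91 CPM in WT replicate 2, beside at most 3.07 CPM in the others.

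The effects of the knockouts differed by the direct test of Irp1-/- against Irp2-/- for 6 of the 117 other junction genes tested, beside 4.69% of all genes. Cgnl1 (log2 fold change 0.36) and Espn (0.21) were higher in Irp1-/- testes. Vezt (-0.49), Mpdz (-0.43), Prkcz (-0.32) and Rictor (-0.22) were lower.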

How the results depend on the processing

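RLE normalization, other count filters, DESeq2 and all 11 samples in one fit left the count of passing genes among the 9 at 0 in each comparison. The labels do not say whether the replicate numbers pair the samples. Same-numbered samples had correlations of -0.01 to 0.078, but no differently numbered samples were set beside them, so pairing was not settled. The Irp1-/- and WT groups share only the numbers 1 and 2. With a replicate block, 2 of the 9 genes, Cldn11 (log2 fold change 0.22, adjusted p = 0.0178) and Gja1 (0.30, adjusted p = 0.00128), and 439 of all genes passed in Irp1-/- against WT, beside 132 in Irp2-/- against WT and 852 between the knockouts, by edgeR. Of the other junction genes 2 then passed in Irp1-/- against WT. The block turned the log2 fold change of Ocln to 0.067 in Irp1-/- against WT, those of Cldn3, Cldn5 and Ocln to 0.020, 0.023 and 0.031 in Irp2-/- against WT, and that of Cdh2 to -0.058 between the knockouts. It also ended the calls of Espn, Mpdz and Rictor between the knockouts (adjusted p = 0.142, 0.359 and 0.109, edgeR). In the block fit, a number found in only 1 genotype has its own term. Its sample then adds nothing to the genotype effect. The effects in Irp1-/- against WT and between the knockouts thus rest on replicates 1 and 2 of each genotype. Those in Irp2-/- against WT rest on replicates 1 to 3.

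Leaving out each sample in turn gave 0 to 1 of the 9 genes between the knockouts (Cldn11 without Irp2-/- replicate 1). The other junction genes that passed then numbered 1 in Irp1-/- against WT each time, 0 to 1 in Irp2-/- against WT (0 without WT replicate 1 or Irp2-/- replicate 2) and 3 to 8 between the knockouts (3 without Irp2-/- replicate 2). Over all genes the counts were 55 to 216, 118 to 223 and 414 to 763, and moved by over 1.5 times without WT replicates 2 and 4 (84 and 106) or Irp1-/- replicates 1 and 6 (55 and 102) in Irp1-/- against WT, without Irp2-/- replicate 2 in Irp2-/- against WT (118), and without Irp1-/- replicate 1 or Irp2-/- replicate 2 between the knockouts (471 and 414). Log2 fold changes that changed sign when a sample was left out, none of which had passed, ranged in Irp1-/- against WT from -0.13 to 0.056 for Ocln, -0.0051 to 0.083 for F11r and -0.011 to 0.20 for Cldn5. In Irp2-/- against WT they ranged from -0.0019 to 0.079 for F11r, -0.028 to 0.016 for Jam3, -0.079 to 0.0445 for Cldn3, -0.057 to 0.022 for Cldn5, -0.16 to 0.030 for Ocln, -0.042 to 0.084 for Cdh2 and -0.10 to 0.011 for Cldn11. Between the knockouts they ranged from -0.041 to 0.036 for F11r, -0.043 to 0.083 for Cdh2, -0.028 to 0.091 for Ocln, -0.070 to 0.039 for Gja1 and -0.083 to 0.040 for Cldn3. Depth limits Cldn5 and Ocln most, for which counting error alone gives 9.68% and 9.10%.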

Other observations

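Chosen after the values were seen, the ratio of Cldn3 to Cldn11 CPM was 0.638 to 0.716 in WT, 0.537 to 0.650 in Irp1-/- and 0.677 to 0.714 in Irp2-/- testes.

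Among the markers of other cell types, the summed level of 8 Leydig cell genes was 739 to 1088 CPM in WT, 1020.1 to 1197 CPM in Irp1-/- and 774 to 1055 CPM in Irp2-/- testes, with Insl3 the most abundant. Of these 8, Hsd17b3 passed in Irp1-/- against WT (log2 fold change 0.37, adjusted p = 0.0232, edgeR), a call lost without WT replicate 1 or 2 or Irp1-/- replicate 1 or 7 (adjusted p from 0.0651 to 0.124, edgeR). Between the knockouts Hsd3b1 (0.68, adjusted p = 0.0170, edgeR) and Insl3 (0.27, adjusted p = 0.0425, edgeR) were higher in Irp1-/-. The call of Hsd3b1 was lost without Irp1-/- replicate 6 or Irp2-/- replicate 2 (adjusted p = 0.0805 and 0.112, edgeR) and that of Insl3 without any 1 of these samples but Irp2-/- replicate 3 (adjusted p from 0.0607 to 0.158, edgeR). Blood genes summed to 30.2 to 36.3 CPM in WT, 37.4 to 56.7 CPM in Irp1-/- and 25.1 to 38.6 CPM in Irp2-/- testes. Round spermatid markers summed to 2047 to 2126 CPM in WT, 2068 to 2168 CPM in Irp1-/- and 1993 to 2097 CPM in Irp2-/- testes. In the same order, spermatocyte markers summed to 1007 to 1096, 1002 to 1025 and 1044.5 to 1096 CPM. Elongating spermatid markers summed to 20404 to 21172, 19404 to 22335 and 17840 to 21306 CPM. Spermatogonia markers summed to 97.0 to 116, 101 to 113 and 105 to 125 CPM.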
